A study of Mus musculus with 12 samples.

Results

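The G1 cyclins, their kinases and the inhibitors of these kinases were followed as 10 named genes, Ccnd1, Ccnd2, Ccnd3, Ccne1, Cdk4, Cdk6, Cdkn1a, Cdkn1b, Cdkn2c and Cdkn2d. All 10 were found by symbol among the 21754 genes of the bulk count table, and all 10 were among the 15293 genes that passed the filter on low counts. RNA came from bone marrow (BM) of wildtype C57BL/6 mice, an inbred strain, which were adult and carried no transgene; the study used mice of both sexes, and ages of single animals are not given in the sources used here. From CD11c+ cells, 4 populations were sorted from 3 individual mice, with 3 libraries per population: Siglec-H- pre-cDCs, which are precursors of conventional dendritic cells (cDCs), Siglec-H+ CCR9lo B220lo cells (lo-lo), Siglec-H+ CCR9lo B220hi cells (lo-hi) and CCR9hi B220hi plasmacytoid dendritic cells (pDCs), the cells known for producing type I interferon. Libraries were made by SCRB-seq, which primes reverse transcription at the poly(A) tail with a sample barcode, so that mostly 3' ends are counted.

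Entry into S phase is controlled in G1. D-type cyclins, induced by growth factor signals, bind CDK4 or CDK6 and start the phosphorylation of the retinoblastoma protein RB, which releases E2F transcription factors. Cyclin E, itself an E2F target, then binds CDK2 and completes this phosphorylation. INK4 proteins (p18 from Cdkn2c, p19 from Cdkn2d) bind CDK4 and CDK6, whereas CIP/KIP proteins (p21 from Cdkn1a, p27 from Cdkn1b) bind cyclin-CDK complexes and are best known for holding back CDK2. Dendritic cell precursors divide in the marrow under Flt3 ligand, and mature pDCs are regarded as mostly non-dividing.

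The wells of the plate were assigned to populations by the order of 28 transcription factor genes in the study's source data, none of which is a member. For each of the 12 source samples, 1 well ranked all 378 gene pairs alike, and the next best well ranked at least 7 pairs in another order. The population matched in this way differs from the population on the deposited label in 8 of the 12 wells (A2 to A5 and A8 to A11) and is the same in 4 (A1, A6, A7 and A12). The matched population is used throughout. It is an inference from values of other genes, and the depositors' labels go against it. With the libraries grouped by label instead, 0 of the 15293 genes and 0 of the 10 members passed among the 4 labelled groups in edgeR's quasi-likelihood test. At an unadjusted p under 0.05 there were 166 genes and 1 member, Cdkn1b. For all genes this is a smaller share than the 0.05 expected where none differs. In this grouping the 6 members called below had an adjusted p of 0.9999. In the 4 wells where label and match name the same population, 1 library each and with no test, Ccnd1 was at 150, 350, 420 and 363 CPM (counts per 1e+06) and Ccne1 at 20.5, 23.2, 7.24 and 6.07 CPM, from pre-cDC through lo-lo and lo-hi to pDC. These wells also enter the tests below, so that their values are no independent check of the match.

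The matched populations differed in marker genes of pDCs and cDCs, of which the sort itself gated on the products of Siglech and Ccr9. The summed level of 5 pDC genes (Siglech, Bst2, Tcf4, Ccr9 and Ly6d) was between 1388 and 2238 CPM in pre-cDC, 5218 and 5364 in lo-lo, 8569 and 8692 in lo-hi, and 8985 and 10350 in pDC libraries. That of 5 cDC lineage genes (Zbtb46, Csf1r, Id2, Batf3 and Cx3cr1) went the other way, from 233 to 297 CPM in pre-cDC to 53.1 to 56.8 CPM in pDC libraries. Within the pDC sum, Ly6d did not climb to pDC, with means of 502, 2043, 2397 and 2033 CPM from pre-cDC to pDC. Itgax, which encodes the gated CD11c, averaged 58.3, 104, 62.1 and 29.6 CPM in the same order. The match used transcription factor genes, and Tcf4, Zbtb46, Id2 and Batf3 encode such factors. These sums are thus no independent check of the match. Total counts were between 1801463 and 5995971, so that 3 counts, used here as the floor of detection, come to 0.5 to 1.67 CPM. CPM are scaled by edgeR's TMM factors, and levels of different genes are not compared with each other. Transcripts of other blood cells were present: 6 granulocyte genes summed to between 3150 and 20049 CPM over the 12 libraries and 4 erythroid genes to between 2494 and 8987 CPM, with 0 of 6 and 0 of 4 called among the populations. The granulocyte sum was 9601 to 20049 CPM in lo-hi and 3150 to 6403 CPM in pDC libraries, without overlap. It was 4269 to 11102 CPM in pre-cDC and 5135 to 17150 CPM in lo-lo libraries. The 3 basophil and mast cell genes (0 of 3 called) reached 808 CPM in a pre-cDC library and at most 176 CPM in any library of the other populations. Of 6 B lineage genes 1 was called (Cd79b), and of 2 platelet genes and of the 2 T and NK cell genes that could be tested, 0. The B lineage sum was 65.5 to 104 CPM in pre-cDC and 64.5 to 94.2 CPM in lo-lo libraries. It was 105 to 145.5 CPM in lo-hi and 103 to 126 CPM in pDC libraries. The part of such cells in the results was not tested. In bulk samples, fewer cells of a type and less RNA per cell cannot be told apart.

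G1 cyclin and kinase transcripts changed in opposite directions from pre-cDC over lo-lo and lo-hi to pDC. Ccnd1, encoding cyclin D1, was 2.35-fold higher in lo-lo than in pre-cDC and as high in lo-hi and pDC, while Ccnd2, Ccnd3 and Ccne1 passed no test between pre-cDC and lo-lo and fell at the step to lo-hi by 1.15 to 1.41 on the log2 scale. Cdk4 was lower in pDC than in pre-cDC. Cdk6 was highest in lo-lo but was not called over the 4 populations. Of the inhibitors, Cdkn1a was lower in pDC, and Cdkn1b, Cdkn2c and Cdkn2d passed no test. Over the 4 populations 6 of the 10 members were called (Ccnd1, Ccnd2, Ccnd3, Ccne1, Cdk4 and Cdkn1a) at a Benjamini-Hochberg adjusted p under 0.01 over all genes (edgeR, quasi-likelihood F test), where 19.9% of all genes tested were called.

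**Figure D1:**
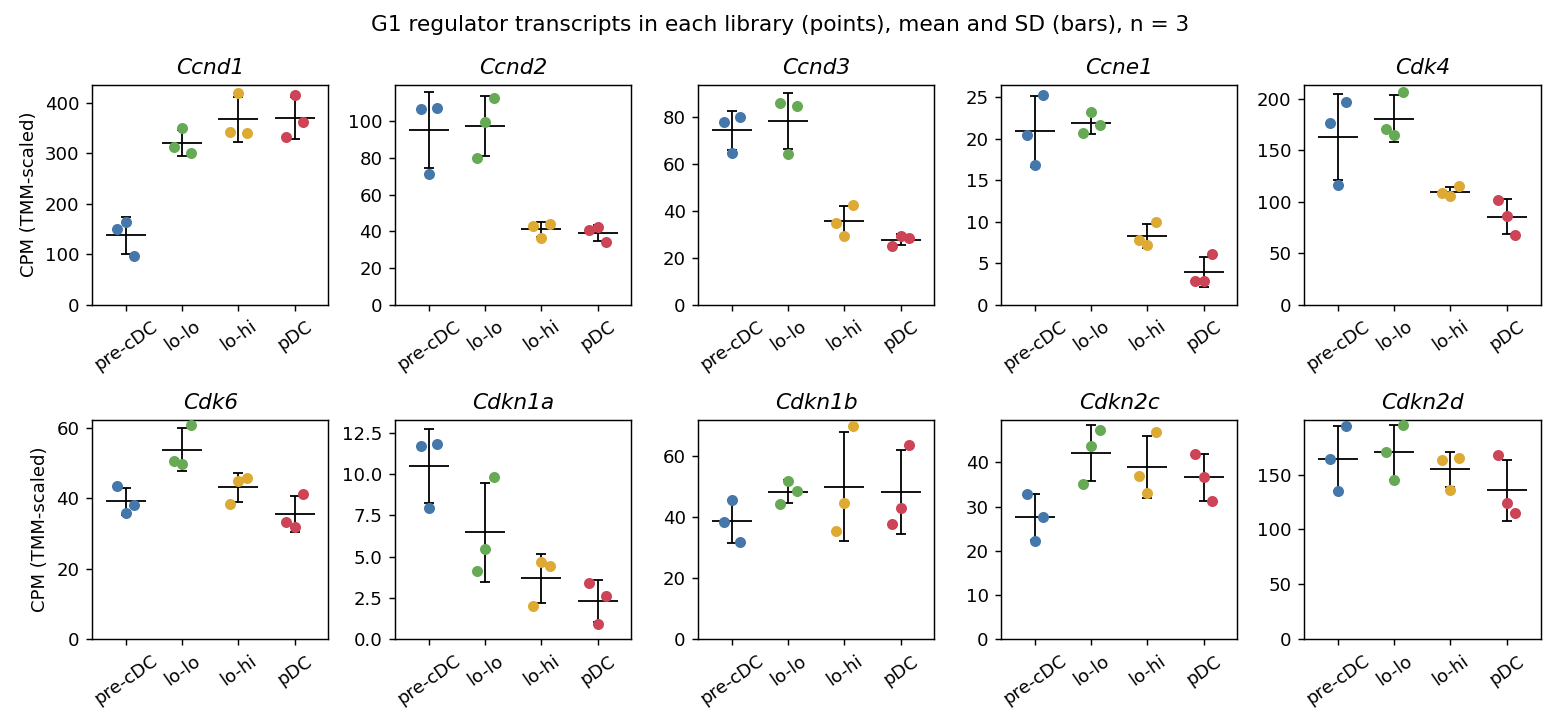
CPM of the 10 members (y axes, linear, from 0) in each of the 12 libraries (points), with the mean and SD of the 3 libraries of each population (bars). Ccnd1 is low in the pre-cDC libraries alone, whereas Ccnd2, Ccnd3 and Ccne1 are high in pre-cDC and lo-lo and low in lo-hi and pDC libraries, without overlap between these 2 pairs of populations.

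Cyclin D1 (Ccnd1, ENSMUSG00000070348, chr7:144929931-144939925, minus strand, GRCm38) is the D cyclin most often linked to mitogen signals. Its level was 150, 165 and 96.3 CPM in the 3 pre-cDC libraries. In lo-lo it was 313, 350 and 300 CPM, in lo-hi 342, 420 and 341 CPM, and in pDC 333, 415 and 363 CPM. Every pre-cDC library was below every library of the other populations, and the other 3 populations overlapped. The difference of lo-lo from pre-cDC was 1.23 ± 0.17 (log2, SE; adjusted p = 4.15e-05, edgeR), and that of pDC from pre-cDC was 1.44 ± 0.17 (adjusted p = 3.59e-07). Of all genes tested, 1.61% were called higher in lo-lo than in pre-cDC and 1.55% lower. Ccnd1 was the 1 member of the 10 called at this step, and it was also higher in lo-hi than in pre-cDC by 1.42 ± 0.17 (adjusted p = 1.07e-06). Between lo-lo and lo-hi the change was 0.19 (95% interval -0.16 to 0.54), and between lo-hi and pDC it was 0.01 (-0.34 to 0.36). The gene's 3' end shares 1100 exonic bases with LTO1 on the opposite strand, and whether the counting used strand is not given in the sources used here. LTO1 itself stood at 6.7 to 14.3 CPM over the 12 libraries (adjusted p = 0.0692).

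Cyclin D2 (Ccnd2, ENSMUSG00000000184, chr6:127125162-127152193, minus strand) changed in the other direction and at another step, from lo-lo to lo-hi. It was at 107, 71.4 and 107 CPM in pre-cDC and 80.0, 99.7 and 113 CPM in lo-lo libraries. In lo-hi it was 42.8, 36.2 and 44.1 CPM, and in pDC 40.9, 42.3 and 34.3 CPM. All 6 libraries of pre-cDC and lo-lo lay above all 6 of lo-hi and pDC, with overlap within each pair. The step from lo-lo to lo-hi lowered the level by a log2 fold change of -1.25 ± 0.19 (adjusted p = 5.88e-05, edgeR), whereas lo-lo against pre-cDC gave 0.03 (95% interval -0.33 to 0.39) and pDC against lo-hi -0.06 (-0.46 to 0.33). The antisense gene 9330179D12Rik, which overlaps Ccnd2 far from its 3' end, was at 0 to 1.01 CPM.

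Cyclin D3 (Ccnd3, ENSMUSG00000034165, chr17:47505051-47599691, plus strand), the D cyclin best known from lymphoid precursors, ran closely with cyclin D2. Its level was 78.2, 65.0 and 80.1 CPM in pre-cDC and 86.2, 64.5 and 84.6 CPM in lo-lo libraries. It was 34.9, 29.5 and 42.4 CPM in lo-hi and 25.0, 29.4 and 28.6 CPM in pDC libraries. Again the libraries of pre-cDC and lo-lo did not overlap with those of lo-hi and pDC, and lo-hi overlapped with pDC. The log2 fold change of lo-hi against lo-lo was -1.15 ± 0.18 (adjusted p = 8.40e-05, edgeR). The change of lo-lo from pre-cDC was 0.07 (95% interval -0.27 to 0.42), and that of pDC from lo-hi was -0.37 (-0.75 to 0.01). Bysl, which shares 361 exonic bases with the 3' end of Ccnd3 on the other strand, was at 6.51 to 13.7 CPM and was not called (adjusted p = 0.605).

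The balance between the D cyclins within a library needs no scaling between libraries. The log2 ratio of Ccnd1 to Ccnd2 counts was 0.51 ± 0.68 (SD, n = 3) in pre-cDC, 1.73 ± 0.29 in lo-lo, 3.16 ± 0.32 in lo-hi and 3.24 ± 0.20 in pDC. That of Ccnd1 to Ccnd3 was 0.85 ± 0.54, 2.04 ± 0.34, 3.38 ± 0.42 and 3.74 ± 0.08 in the same order. Both ratios were higher in every lo-lo library than in every pre-cDC library and higher again in every lo-hi library, whereas lo-hi and pDC overlapped. The ratio of Ccnd2 to Ccnd3 stayed between -0.11 and 0.71 in all 12 libraries, with means of 0.34, 0.31, 0.22 and 0.50. These ratios combine genes whose tests are given above, and are given as a description. They are ratios of counts of different genes, and only their change between populations is read here.

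**Figure D2:**
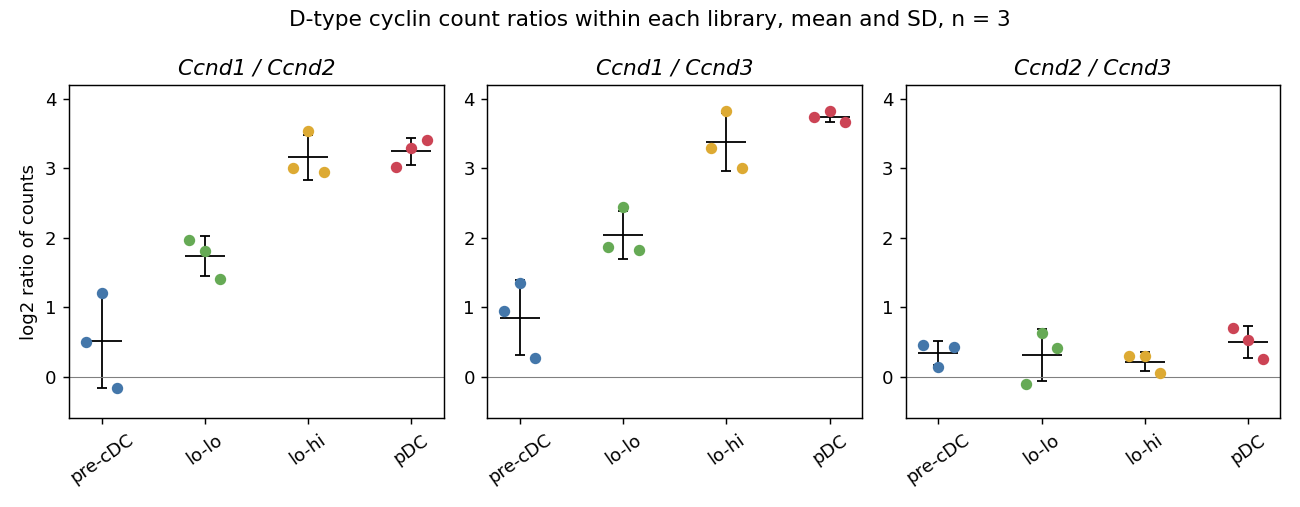
Log2 ratio of the counts of 2 D cyclins within a library (y axis), by population, with the 3 libraries as points and their mean and SD as bars. Ccnd1 over Ccnd2 and Ccnd1 over Ccnd3 climb from pre-cDC to lo-hi, while Ccnd2 over Ccnd3 stays between -0.11 and 0.71.

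Cyclin E1 (Ccne1, ENSMUSG00000002068, chr7:38097984-38107534, minus strand) had the largest change among the 10 members. Its level was 20.5, 16.9 and 25.3 CPM in pre-cDC and 20.7, 23.2 and 21.7 CPM in lo-lo libraries. It was 7.73, 7.24 and 9.92 CPM in lo-hi and 2.90, 2.84 and 6.07 CPM in pDC libraries, the last from 9 to 17 counts. The 3 levels, pre-cDC with lo-lo, then lo-hi, then pDC, did not overlap. The log2 fold change of lo-hi against lo-lo was -1.41 ± 0.25 (adjusted p = 3.27e-04, edgeR) and that of pDC against pre-cDC was -2.53 ± 0.27 (adjusted p = 5.04e-08), a 5.76-fold lower level. The further difference of pDC from lo-hi, -1.16 ± 0.31, missed the threshold (adjusted p = 0.0448). Without pDC library 3, which was the highest of its population, it passed at -1.49 (adjusted p = 0.00919). Between pre-cDC and lo-lo the change was 0.05 (95% interval -0.40 to 0.50). At the step from lo-lo to lo-hi, Ccnd2, Ccnd3 and Ccne1 were thus the 3 of 10 members called in the main test, all lower. Of all genes, 2.83% were called lower there and 2.33% higher. At the step from lo-hi to pDC 0 of 10 were called in edgeR's test, with 0.844% of all genes lower and 0.118% higher; Ccne1 was the 1 member with an unadjusted p under 0.05, and DESeq2 called 0 as well.

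**Figure D3:**
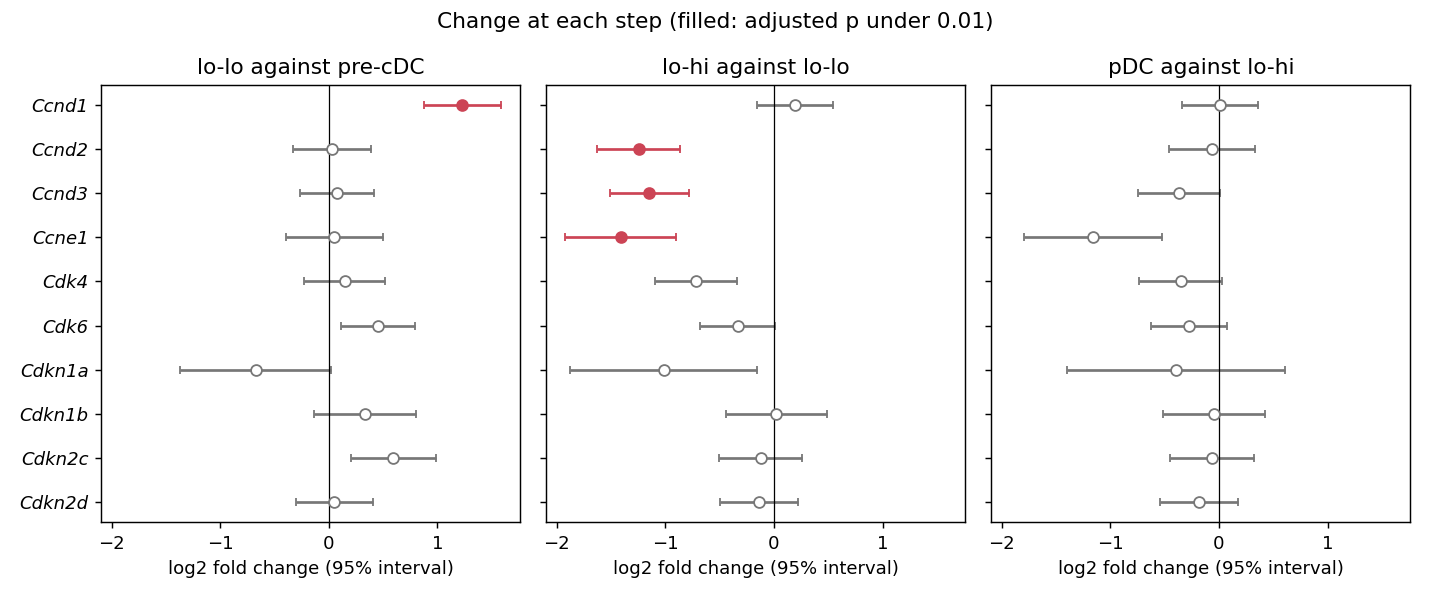
Log2 fold change (x axis) of each member at the 3 steps between neighbouring populations, with 95% intervals; filled red points passed an adjusted p of 0.01, open grey points did not. Ccnd1 is filled at the first step, Ccnd2, Ccnd3 and Ccne1 at the second, and no member at the third.

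Cdk4 (ENSMUSG00000006728, chr10:127063534-127067920, plus strand), the kinase partner of the D cyclins, was at 177, 116 and 197 CPM in pre-cDC and 171, 164 and 207 CPM in lo-lo libraries. It was 108, 106 and 115 CPM in lo-hi and 102, 86.5 and 67.7 CPM in pDC libraries. The 3 pDC libraries lay below all others, the 3 lo-hi libraries came next, and the lowest pre-cDC library was close to the highest lo-hi library. The fall was significant for pDC against pre-cDC (log2 fold change -0.93 ± 0.18, adjusted p = 2.88e-04, edgeR) and for pDC against lo-lo (-1.07 ± 0.18, adjusted p = 7.97e-05). At the step from lo-lo to lo-hi it was -0.72 ± 0.18 with an adjusted p of 0.0111, just outside the threshold, and DESeq2 placed it inside (adjusted p = 0.0048). In edgeR, the fall at this step also passed with DESeq2's size factors (adjusted p = 0.00894) and without a filter (7.24e-04). It passed with a filter of CPM above 1 in 3 libraries (0.00912), after thinning (0.00679) and in the fit of 6 libraries (5.20e-05). In fits without 1 library it passed in some and not in others. For lo-hi against pre-cDC it was -0.58 ± 0.18 (adjusted p = 0.0263). With the replicate number as a block both passed, at -0.72 (adjusted p = 0.00169) and -0.56 (adjusted p = 0.00942). The change was 0.14 for lo-lo against pre-cDC (95% interval -0.23 to 0.52), and -0.35 for pDC against lo-hi (-0.73 to 0.03). Tspan31, whose exons share 641 bases with Cdk4 up to its 3' end on the opposite strand, was at 1.65 to 3.35 CPM and was not called (adjusted p = 0.759).

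Promoter sequence was read from RefSeq (GRCm38.p6), which gave 11 windows for 8 of the 10 members, as the 250 bases before an annotated transcript start. Those of 2 are shown, for a kinase and a cyclin that both fell toward pDC, without any base that GENCODE vM21 places in an exon, in the direction of transcription. Capitals mark CACGTG, the E-box motif that MYC-family and other factors can bind, which reads the same on both strands. The other motif searched, on both strands, was TTTNNCGC, a form of the E2F motif, and neither of these 2 stretches holds it.

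Cdk4, chr10:127063285-127063533, plus strand: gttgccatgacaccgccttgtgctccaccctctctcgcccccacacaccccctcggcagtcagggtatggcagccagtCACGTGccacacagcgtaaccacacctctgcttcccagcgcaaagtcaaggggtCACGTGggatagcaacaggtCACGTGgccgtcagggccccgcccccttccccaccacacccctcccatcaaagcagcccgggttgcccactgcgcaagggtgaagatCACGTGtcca

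Ccne1, chr7:38107535-38107740, minus strand: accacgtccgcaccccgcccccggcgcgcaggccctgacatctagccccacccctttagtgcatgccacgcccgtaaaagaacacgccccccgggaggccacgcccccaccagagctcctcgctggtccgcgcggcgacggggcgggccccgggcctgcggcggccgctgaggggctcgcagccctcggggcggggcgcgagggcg

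The Cdk4 window holds 4 copies of CACGTG, and 7 of all 32851 windows of 250 bases hold at least 4. This cutoff was set by the Cdk4 window, the highest of the 11 member windows, which is itself among the 7. The motif occurs at least once in 6.02% of these windows and TTTNNCGC in 4.28%. Among the other members, the Cdk6 window holds 1 copy of each motif, and the windows of Ccnd3, Ccne1, Cdkn1a, Cdkn1b, Cdkn2c and Cdkn2d hold neither. These are matches of letters and no evidence of binding.

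Cdk6 (ENSMUSG00000040274, chr5:3341485-3531008, plus strand), the other kinase partner, was at 43.3, 35.7 and 38.2 CPM in pre-cDC and at 50.5, 49.8 and 60.7 CPM in lo-lo libraries. It was 38.4, 45.0 and 45.7 CPM in lo-hi and 33.4, 31.9 and 41.2 CPM in pDC libraries. The lo-lo libraries were the highest, and the other populations overlapped. Over the 4 populations Cdk6 was not called (adjusted p = 0.0279). The contrast of pDC with lo-lo passed (-0.61 ± 0.16, adjusted p = 0.00801, edgeR), but not in fits without any 1 of 9 libraries, namely all but pre-cDC libraries 2 and 3 and pDC library 3, where the adjusted p was between 0.0103 and 0.05. It was also lost in edgeR's fit of the pDC and lo-lo libraries alone (adjusted p = 0.0161). The change of lo-lo from pre-cDC was 0.46 (95% interval 0.11 to 0.80, adjusted p = 0.121), that of lo-hi from lo-lo -0.33 (-0.68 to 0.01) and that of pDC from pre-cDC -0.16 (-0.51 to 0.19). The log2 ratio of Cdk4 to Cdk6 counts fell from a mean of 2.03 ± 0.33 (SD, n = 3) in pre-cDC and 1.75 ± 0.02 in lo-lo to 1.35 ± 0.13 in lo-hi and 1.25 ± 0.47 in pDC libraries. The pDC libraries overlapped with lo-hi and lay below every pre-cDC and lo-lo library in this ratio.

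Among the CIP/KIP inhibitors, Cdkn1a (p21, ENSMUSG00000023067, chr17:29090976-29100727, plus strand) was lower in lo-hi and pDC than in pre-cDC. Unlike Ccnd2, Ccnd3 and Ccne1, it was called at no step between neighbouring populations. Its level was 11.7, 7.93 and 11.8 CPM in pre-cDC and 4.13, 5.46 and 9.83 CPM in lo-lo libraries. It was 1.99, 4.66 and 4.41 CPM in lo-hi and 3.41, 0.948 and 2.60 CPM in pDC libraries. Counts were low, from 3 to 44 per library, and the second pDC library was at the floor of 3. The pre-cDC libraries lay above all lo-hi and pDC libraries and overlapped with lo-lo. The log2 fold change was -2.09 ± 0.39 for pDC against pre-cDC (adjusted p = 1.59e-04, edgeR) and -1.69 ± 0.40 for lo-hi against pre-cDC (adjusted p = 0.00318). Without pDC library 1, the highest of its population, the former came to -2.70. Without the first lo-hi library, the lowest of its population, the latter came to -1.23 and was lost (adjusted p = 0.0725); it was also lost without the first or the third pre-cDC library (adjusted p = 0.0205 and 0.0111). The contrasts with lo-lo did not pass (pDC -1.41, adjusted p = 0.0127; lo-hi -1.02, 95% interval -1.88 to -0.15; lo-lo against pre-cDC -0.68, -1.37 to 0.02). That of pDC passed with the replicate number as a block (-1.31, adjusted p = 0.00714), without a filter (-1.42, adjusted p = 9.37e-04) and, at -2.03, without pDC library 1 (adjusted p = 0.00538).

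Cdkn1b (p27, ENSMUSG00000003031, chr6:134920401-134925513, plus strand) showed no difference past the threshold. It ranged from 31.8 to 45.6 CPM in pre-cDC, from 44.3 to 51.9 in lo-lo, from 35.6 to 70.0 in lo-hi and from 37.8 to 63.8 in pDC libraries (adjusted p = 0.569 over the 4 populations). For pDC against pre-cDC the log2 fold change was 0.31 with a 95% interval of -0.16 to 0.78. The spread within lo-hi and pDC was wide, with library 3 highest in both.

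The INK4 genes passed no test either. Cdkn2c (p18, ENSMUSG00000028551, chr4:109660876-109667189, minus strand) was at 22.3 to 32.8 CPM in pre-cDC, 35.1 to 47.3 in lo-lo, 33.1 to 46.8 in lo-hi and 31.2 to 41.9 in pDC libraries, and was not called (adjusted p = 0.0925). Every lo-lo and lo-hi library lay above every pre-cDC library. The change of lo-lo from pre-cDC was 0.59 (95% interval 0.20 to 0.98, adjusted p = 0.0669) and that of pDC from pre-cDC was 0.40 (0.01 to 0.80, adjusted p = 0.112). Cdkn2d (p19, ENSMUSG00000096472, chr9:21288410-21291407, minus strand) was at 135 to 194 CPM in pre-cDC, 145 to 195 in lo-lo, 136 to 165 in lo-hi and 115 to 168 in pDC libraries (adjusted p = 0.46). Its populations overlapped throughout, and pDC against pre-cDC gave -0.27 (-0.63 to 0.08). For Cdkn1b, Cdkn2c and Cdkn2d the intervals of pDC against pre-cDC reach from -0.63 to 0.80, and changes of these sizes are not excluded by the lack of a call.

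Set against the whole table, the members called in the widest contrasts were 1 higher and 5 lower in pDC than in pre-cDC, where 11.4% of all genes were called higher and 10.4% lower. In pDC against lo-lo 0 were higher and 5 lower (6.71% and 7.08% of all genes), and in lo-hi against pre-cDC 1 was higher and 4 lower (6.76% and 6.32%). The median log2 fold change of the 10 members was -0.60 for pDC against pre-cDC, beside 0.05 over all genes tested, and -0.53 for lo-hi against lo-lo, beside 0.01. These contrasts share libraries and are not independent of each other.

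Of the partners of the members in the same pathway, some were called in each list and others were not. Of 13 RB and E2F genes 5 were called over the 4 populations, beside 19.9% of all genes tested. Those called in any pairwise comparison were lower in the later population. E2f8 and E2f7, atypical E2Fs that repress E2F targets, fell from 34.0 ± 1.97 and 15.4 ± 2.51 CPM (SD, n = 3) in pre-cDC to 5.24 ± 2.11 and 2.42 ± 1.15 CPM in pDC, log2 fold changes of -2.65 and -2.79, the latter -2.11 with all libraries thinned to the smallest total. E2f2, an activating E2F, fell by 1.91 (log2) from 33.6 ± 5.47 to 9.20 ± 1.73 CPM. Rbl1, which encodes the RB relative p107, fell by 1.01. Without pre-cDC library 1 the fall of Rbl1 was 0.97 and missed the threshold (adjusted p = 0.0102, edgeR). The fifth was E2f3, lower in lo-hi than in lo-lo by 1.17 (adjusted p = 0.00829, edgeR). At the step from lo-lo to lo-hi 3 of 13 were called lower (E2f8, Rbl1 and E2f3), beside 2.83% of all genes. At the step from lo-hi to pDC 3 of 13 were called lower (E2f8, E2f7 and E2f2), beside 0.844%. Rb1 itself was not called (adjusted p = 0.998).

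In the CDK2 arm 2 of 6 genes were called over the 4 populations, beside 19.9% of all genes tested. Ccne2, encoding the second cyclin E, fell from 12.5 ± 1.06 CPM in pre-cDC and 19.2 ± 5.62 in lo-lo to 7.17 ± 4.24 in lo-hi and 2.65 ± 0.34 in pDC. Cdk2, the kinase partner of cyclin E, fell from 25.5 ± 3.93 and 24.1 ± 2.14 CPM to 13.4 ± 2.18 and 7.82 ± 0.46 CPM in the same order. Both were called at the step from lo-lo to lo-hi, as Ccne1 was, with log2 fold changes of -1.42 and -0.84. Of 3 further CDK inhibitors, Cdkn1c was in the table with at most 3 counts a library, under the filter. Cdkn2a and Cdkn2b were not found by symbol in the count table.

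Of 9 genes for the turnover of G1 cyclins and inhibitors 4 were called over the 4 populations, beside 19.9% of all genes tested. Skp2 and Cks1b, which together mark p27 for degradation, fell in pDC against pre-cDC by 1.62 and 2.46 (log2), and Cdc20, an activator of the mitotic ubiquitin ligase APC/C, by 2.60. Fbxw7, which recognises cyclin E for degradation, rose from 17.5 ± 5.16 CPM in pre-cDC to 39.7 ± 9.90 CPM in pDC (log2 fold change 1.18, adjusted p = 1.17e-04, edgeR). Cks1b fell at both later steps, by 0.97 and then by 1.22.

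Of 10 upstream regulators 4 were called over the 4 populations, with both directions, beside 19.9% of all genes tested. Myc, a driver of G1 progression, was at 14.3, 15.4 and 18.2 CPM in pre-cDC and 4.13, 2.39 and 5.36 CPM in lo-lo libraries. It was 2.65, 1.55 and 3.86 CPM in lo-hi and 1.02, 1.58 and 1.30 CPM in pDC libraries, from 3 to 12 counts. It was lower in lo-lo than in pre-cDC (log2 fold change -1.95 ± 0.29, adjusted p = 6.98e-05, edgeR). In this contrast Ccnd1 was higher, and Ccnd2, Ccnd3 and Ccne1 did not pass. Myc was lower again in pDC than in lo-lo (-1.69 ± 0.41, adjusted p = 0.00372, edgeR). Csf1r, the M-CSF receptor, fell at the first and second steps and by 3.63 in all. Mycl, a MYC family member of dendritic cells, rose from 26.4 ± 3.34 to 52.5 ± 3.36 CPM and Foxo1, a transcription factor that is held back by growth factor signals, by 1.09 (log2), both for pDC against pre-cDC.

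All 9 proliferation markers were called over the 4 populations, beside 19.9% of all genes tested. Their summed level was 1250 to 1392 CPM in pre-cDC, 1348 to 1468 in lo-lo, 532 to 702 in lo-hi and 239 to 305 in pDC libraries. At the first step 0 of 9 passed in edgeR's test, where 1.55% of all genes were called lower and 1.61% higher. At the step from lo-lo to lo-hi 9 of 9 were lower, beside 2.83% of all genes. From lo-hi to pDC 5 of 9 were lower, beside 0.844%. Top2a, a DNA topoisomerase of dividing cells, fell by 2.57 and Ccna2, the S and G2 phase cyclin A2, by 2.93 in pDC against pre-cDC. Ccnd2, Ccnd3 and Ccne1 were called at the same step as all 9 markers, and whether their level per cycling cell changed was not tested. The lists were chosen with earlier results of these data known, and their counts are a description.

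**Figure D4:**
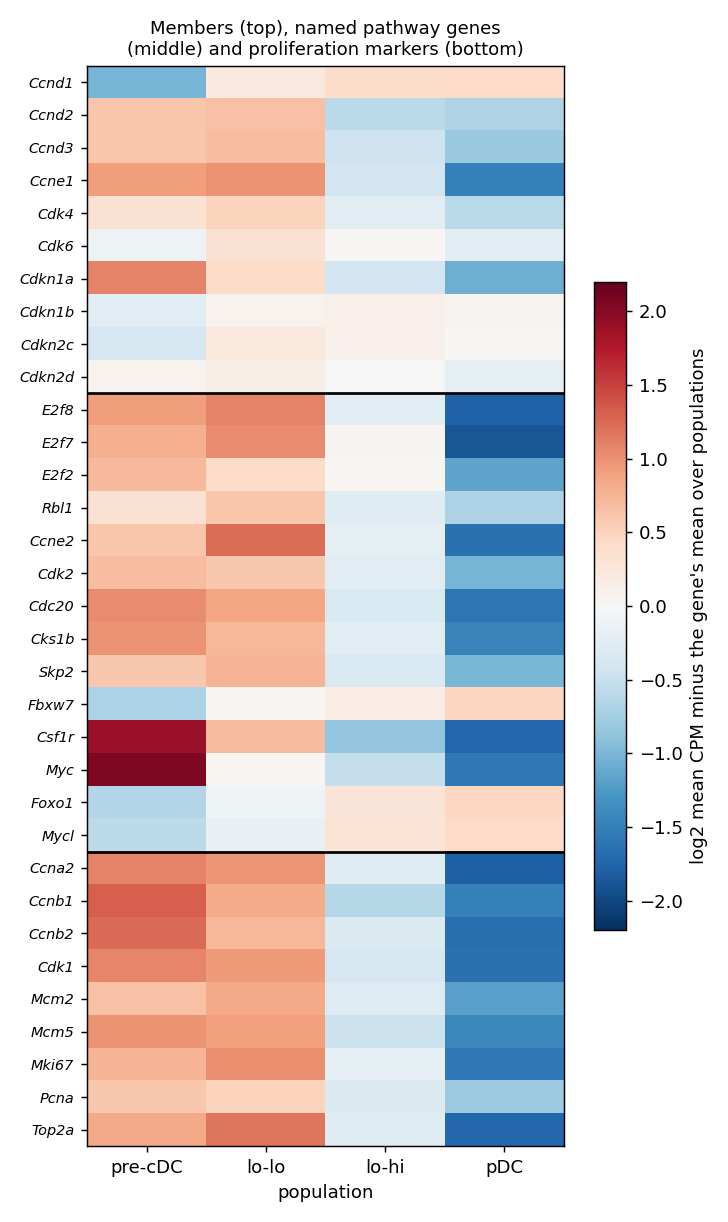
Log2 of the mean CPM of each population minus the gene's mean over the 4 populations (colour), for the 10 members, the 14 named genes of the pathway lists and the 9 proliferation markers (rows). Most rows turn from red in pre-cDC and lo-lo to blue in pDC. Ccnd1, Fbxw7, Foxo1 and Mycl are on the blue side in pre-cDC and on the red side in pDC. Cdk6, Cdkn1b, Cdkn2c and Cdkn2d stay pale.

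The genes whose log2 CPM ran most like those of the called members over the 12 libraries, which are 3 from each of 4 populations, were named by a fixed rule among 7760 to 7761 genes with a mean of at least 10 CPM. Ccnd1 was most like Slc38a1 (r = 0.989), an amino acid transporter gene, and Frmd4a (r = 0.983). Ccnd2 was most like Pold3 (r = 0.978), a subunit of DNA polymerase delta, and Gm5620 (r = 0.968). Ccnd3 was most like Kcnn4 (r = 0.986), a potassium channel, and Haus4 (r = 0.985), a subunit of the spindle complex augmin. For Ccne1 the nearest were Prc1 (r = 0.988), a protein of the mitotic midzone, and the histone gene Hist1h2aj (r = 0.988). Cdk4 was followed by Ilf2 (r = 0.983) and Lsm8 (r = 0.982), both RNA-binding proteins, and Cdkn1a by Gins1 (r = 0.942), part of the replicative helicase, and Gm12537 (r = 0.934). Such r are set mainly by the differences between the 4 populations.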

How the data were processed

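Bulk SCRB-seq was performed by the authors on 4 sorted BM populations, with 3 libraries each. Per the methods and labels, reads were quality filtered in zUMIs, mapped to mm10 with STAR (version 2.5.2b, from the submitters' processing notes) and assigned to Ensembl genes of GRCm38. The table deposited by the authors holds whole-number counts of each gene in each well, neither normalized nor filtered; whether these are reads or molecular identifiers is not given in the sources used here. Total counts had a median of 3087455. If a read count repeats molecules, the counting error is understated.

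Wells were assigned to populations by the rank match described above, and not by label. Genes were tested from a mean count of 1 upwards (15293, with 6461 left out), TMM-scaled, in 1 fit of all 12 libraries without covariates by edgeR's quasi-likelihood test (version 4.0.16, R 4.3.3, robust), over the 4 populations and for 6 contrasts. P-values were Benjamini-Hochberg adjusted over all genes tested, with a cutoff of 0.01; SEs and 95% intervals follow from the F statistic. Symbols came from a reference table (21410 of 21754 matched) and positions from GENCODE vM21. The members, gene lists and tests were chosen with earlier results of these data known. Named list genes are at most 4 called genes per list with the widest range of population means, and E2f3, Rb1 and Cdkn1c, which were chosen after their values were seen; the likeness rule took the 2 highest Pearson r (prior count 1). The 3 libraries of a population come from 3 mice. Replicate libraries differed by more than sampling noise. Alternatives were DESeq2 1.42.0, its size factors, other filters, a cutoff of 0.05, thinning to the smallest total, a replicate block, fits of 6 libraries, leaving out each library, and grouping by label. The fit was tested on simulated data. The columns hold no comparisons by the authors.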

Additional observations from a re-analysis of the deposited data

How the results depend on the processing

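Wells were grouped by the match to the source data. Grouped by their labels, 0 genes and 0 members passed in edgeR's test, over the 4 groups and in each of the 6 contrasts, with 138 to 344 genes at an unadjusted p under 0.05 in a contrast. Each of these counts is a smaller share of the genes tested than 0.05. All other alternatives kept the direction of the called folds of members. Without a filter, 733 genes were called for lo-lo against pre-cDC (483 in the main test) and 344 for pDC against lo-hi (147). At a cutoff of 0.05, the counts were 907 for lo-lo against pre-cDC, 1321 for lo-hi against lo-lo (790), 327 for pDC against lo-hi, where 1 member (Ccne1) passed, 3332 for pDC against lo-lo (2108) and 3063 for lo-hi against pre-cDC (2001). Fits of only the 6 libraries compared called 1200 genes for lo-hi against lo-lo and 221 for pDC against lo-hi, and lost Cdk6 in pDC against lo-lo. Leaving out each library in turn gave 280 to 657 genes for lo-lo against pre-cDC, 378 to 946 for lo-hi against lo-lo and 65 to 211 for pDC against lo-hi, with 0 to 1 members called in the last. The cause of these shifts was not tested.

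All populations came from 3 mice, but whether a replicate number marks a mouse is not given in the sources used here. The correlation of deviations from the population means was over 0.1 in 8 of 18 pairs with the same number, with a mean of 0.096, against -0.0477 over 36 pairs with other numbers. The lowest of the 18 was -0.11, so that the rule set for a pairing, every same-number correlation over 0.1, was not met. Prss34 and Mcpt8, basophil and mast cell genes that were not called, were lowest in library 3 of all 4 populations. Whether libraries with the same number share a mouse was not tested further. With the replicate block, 743 genes were called for lo-lo against pre-cDC and 346 for pDC against lo-hi, and Cdk4 (lo-hi against lo-lo and against pre-cDC) and Cdkn1a (pDC against lo-lo) passed. Thinned to the smallest total, Cdk6 in pDC against lo-lo (adjusted p = 0.0113) and Cdkn1a in lo-hi against pre-cDC (0.0134) were lost. Folds near 0 changed sign. For Ccnd1 in pDC against lo-hi it was -0.00457 by DESeq2, -0.00459 with its size factors, and -0.0756 to 0.12 without 1 library. For lo-lo against pre-cDC, Ccnd2 was -5.54e-05 in the fit of 6 libraries and -0.16 to 0.16 without 1 library, and Ccne1 was -0.0746 after thinning and -0.0922 to 0.21 without 1 library. Ccnd3 (-0.0336 to 0.19) and Cdk4 (-0.0698 to 0.30) in lo-lo against pre-cDC and Ccnd2 (-0.14 to 0.0136) in pDC against lo-hi did so without 1 library. Counts of 3 to 44 limit the precision for Cdkn1a.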
